A study of Mus musculus with 10 samples.

Results

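The enzymes that write and erase cytosine methylation were followed as 9 genes: the methyltransferases Dnmt1, Dnmt3a and Dnmt3b, the catalytically inactive cofactor Dnmt3l, the maintenance factor Uhrf1, the dioxygenases Tet1, Tet2 and Tet3, and the glycosylase Tdg. They were selected by gene symbol, with earlier results of these data known. All 9 were present in every library, out of 24411 genes. The libraries came from mouse embryos made by in vitro fertilization (strain ICR, as labelled for 4 of the libraries), injected at the one-cell stage 3 to 6 hours after insemination and grown in KSOM medium to the morula stage at 72 hours. One group received an antisense oligonucleotide that targets Mettl3, the catalytic subunit of the RNA N6-methyladenosine methyltransferase (Mettl3-ASO, n = 5), and the other a non-targeting oligonucleotide (ASO-Control, n = 5). No uninjected embryos were analysed here, so injection is common to both groups. Each library pooled 10 embryos, was made from polyadenylated RNA with SMART-Seq v4 PLUS, and belonged either to batch 2 (replicates 3 to 5 of both groups) or carried no batch tag (replicates 1 and 2, called untagged).

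In mammals, DNMT3A and DNMT3B place methyl groups on unmethylated CpG sites, and DNMT3L binds and stimulates them without catalysing the reaction itself. After replication, UHRF1 recognises CpG sites methylated on 1 strand and recruits DNMT1, which copies the mark onto the new strand. TET enzymes oxidise 5-methylcytosine, and TDG excises the most oxidised forms so that base excision repair can restore plain cytosine. Both parental genomes lose most methylation during cleavage and are methylated again around implantation. RNA levels of these genes were measured here. DNA methylation and protein were not.

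The regulatory sequences of the genes with the largest fitted changes are shown first. RefSeq promoter windows (build GRCm38.p6, 250 bases before to 50 after a transcript start) were matched for all 9 genes, 16 windows in all. CpG sites are in capitals, and each sequence runs 5′ to 3′ on the strand of the gene.
Dnmt3b, chr2:153649199-153649498, plus strand: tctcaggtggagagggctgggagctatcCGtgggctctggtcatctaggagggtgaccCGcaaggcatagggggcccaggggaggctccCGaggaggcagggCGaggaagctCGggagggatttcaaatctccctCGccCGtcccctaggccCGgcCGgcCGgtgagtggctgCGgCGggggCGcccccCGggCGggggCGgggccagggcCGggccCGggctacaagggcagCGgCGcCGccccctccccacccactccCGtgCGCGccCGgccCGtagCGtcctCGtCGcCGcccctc
Tet2, chr3:133544341-133544640, minus strand: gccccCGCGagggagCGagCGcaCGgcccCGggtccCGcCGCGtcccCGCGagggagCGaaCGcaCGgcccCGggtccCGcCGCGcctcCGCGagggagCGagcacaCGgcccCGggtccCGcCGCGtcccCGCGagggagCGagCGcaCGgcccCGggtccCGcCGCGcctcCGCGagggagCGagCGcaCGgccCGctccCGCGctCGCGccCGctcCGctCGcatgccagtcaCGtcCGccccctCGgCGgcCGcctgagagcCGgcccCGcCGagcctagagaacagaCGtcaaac
Uhrf1 upstream start, chr17:56303087-56303386, plus strand: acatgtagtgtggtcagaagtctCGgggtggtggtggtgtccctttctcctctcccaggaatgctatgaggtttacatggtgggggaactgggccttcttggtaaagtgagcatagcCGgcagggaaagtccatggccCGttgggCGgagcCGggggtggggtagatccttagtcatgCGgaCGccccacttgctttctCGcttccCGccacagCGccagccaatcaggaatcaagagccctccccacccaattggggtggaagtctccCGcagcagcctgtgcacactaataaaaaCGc
Uhrf1 downstream start, chr17:56304063-56304362, plus strand: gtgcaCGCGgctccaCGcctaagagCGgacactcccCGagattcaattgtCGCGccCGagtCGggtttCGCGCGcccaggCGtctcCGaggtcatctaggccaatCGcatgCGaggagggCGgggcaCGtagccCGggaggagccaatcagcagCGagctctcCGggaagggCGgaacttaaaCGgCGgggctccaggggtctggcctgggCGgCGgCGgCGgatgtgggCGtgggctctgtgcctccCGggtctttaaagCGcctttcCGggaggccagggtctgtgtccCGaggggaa
Dnmt3a, chr12:3806910-3807209, plus strand: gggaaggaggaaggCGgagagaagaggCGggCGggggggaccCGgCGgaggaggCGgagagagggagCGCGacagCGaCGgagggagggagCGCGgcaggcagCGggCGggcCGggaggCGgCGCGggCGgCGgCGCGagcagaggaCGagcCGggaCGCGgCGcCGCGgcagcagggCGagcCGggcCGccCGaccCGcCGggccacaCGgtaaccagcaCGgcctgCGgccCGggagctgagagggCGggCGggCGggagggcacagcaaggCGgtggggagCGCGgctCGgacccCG

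The Tet2 window held 57 CpG sites, the 99.8 percentile of 32851 mouse promoter windows of the same length, whose median was 7. The Dnmt3a window shown held 47 and the Dnmt3b window 30. The upstream Uhrf1 start lay in a window with 12 CpG sites and the downstream start in one with 33. By contrast, the 3 Dnmt3l windows held 6, 4 and 3. The genes that fell and the gene that rose, described below, therefore both included CpG-rich windows. The GC box GGGCGG, searched on both strands, was present in 12 of the 16 windows and in 35.7% of all promoter windows. The CCAAT box (CCAAT) was present in 6 of 16 (37.4% of all) and the E-box CACGTG in 3 of 16 (7.15% of all). These motifs do not overlap one another in letters, and a match is a description of sequence only. The 16 windows are not independent, since the Dnmt3a windows starting at 3806730 and 3806910 share bases. The motif counts were not corrected for base content, so no enrichment is read from them.

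The targeted transcript was checked first. Mettl3 stood between 6.34 and 13.97 TPM (transcripts scaled to a constant library total and corrected for length) in the ASO-Control libraries and between 0 and 0.04 TPM in the Mettl3-ASO libraries, with 0 counts in replicates 1 to 3. The difference was -8.84 in FPKM (fragments scaled to gene length and depth), with a two-sided exact permutation p = 0.0167 within batches, the smallest that 120 relabellings allow. The 4 untagged libraries had depths of 9905830 to 13530284 expected counts, below the 21412857 to 32327283 of batch 2 (6 libraries). Of 10 genes chosen as morula markers, 7 fell and 1 rose (Nanog), where 24.0% of all tested genes fell and 25.4% rose. These markers were chosen with earlier results known, so no excess over those shares is read from the count. Their summed level was 585 to 1810 TPM in controls. It was 297 to 410 TPM in Mettl3-ASO replicates 2 to 5 and 1190 TPM in replicate 1. The summed level of an 11-gene list for the two-cell stage went from 5.0 to 18.7 TPM in controls to 1140 to 3590 TPM after Mettl3-ASO. Genes of this list such as Zscan4c (mean 0.166 TPM in controls) and Usp17lb (0.146 TPM) passed the filter on mean FPKM only through their Mettl3-ASO values. The list was also chosen with earlier results known, so its number of called genes is not set against the share of all genes. Of the 12-gene oocyte list, 8 missed the filter, among them Zar1 (mean 0.128 TPM in controls, 0.11 TPM after Mettl3-ASO). The 4 tested genes rose, but Oosp1 (0.718 TPM in controls, 3.47 TPM after Mettl3-ASO) owed its test to its Mettl3-ASO values. That count is therefore not read as a rise of the whole list. Its summed level was 7.36 to 12.8 TPM in controls and 18.2 to 42.9 TPM after Mettl3-ASO. Blood markers, mostly Hba-a1, summed to 29.8 to 68.7 TPM and 34.4 to 92.8 TPM, with Hbb-bs and Hbb-bt at 0. Markers of cumulus cells summed to at most 1.56 TPM and of sperm to at most 3.28 TPM in any library.

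Dnmt3l was the most abundant of the 9 transcripts in both groups. On the length-corrected TPM scale, the median over the control libraries was 82.4 for Dnmt3l, 10.99 for Dnmt3b, 9.99 for Tet2, 4.27 for Uhrf1, 2.5 for Tet1, 2.41 for Dnmt3a, 1.71 for Dnmt1, 0.77 for Tdg and 0.22 for Tet3. Only Dnmt3l and Dnmt3b, and Tdg and Tet3, had ranges that did not overlap among neighbours in this order. In the Mettl3-ASO libraries the medians ran from Dnmt3l at 57.4 through Dnmt3a at 4.85, Tet1 at 2.85, Tet2 at 2.7, Dnmt3b at 2.68, Uhrf1 at 1.66, Dnmt1 at 1.51 and Tet3 at 0.4 to Tdg at 0.31. By median, Dnmt3a was next to Dnmt3l after Mettl3-ASO, a place that Dnmt3b held in the controls. The control order of Tet1 and Dnmt3a holds for the medians only, since the means were 2.26 and 2.53 TPM. In this second order the neighbouring ranges of Tet1, Tet2, Dnmt3b, Uhrf1 and Dnmt1 overlapped, as did those of Tet3 and Tdg.

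**Figure D1:**
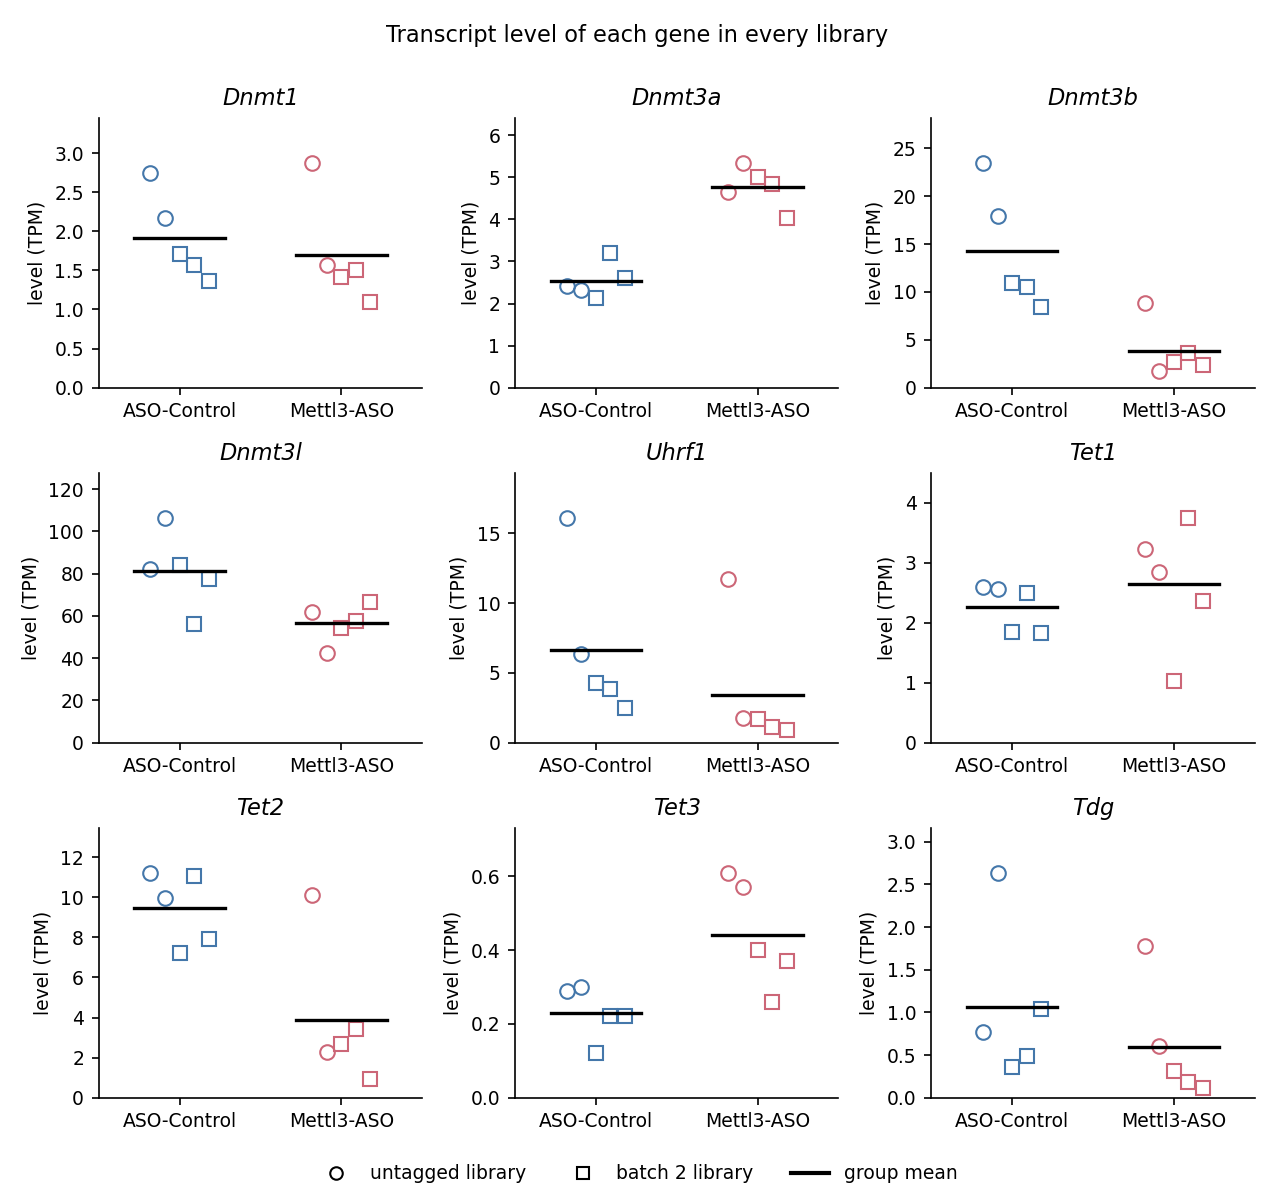
Each panel plots the level of 1 gene in TPM (linear axis from 0) in every library, with ASO-Control on the left and Mettl3-ASO on the right. Circles are untagged libraries, squares are batch 2 and the bar is the mean of 5; Dnmt3a separates the groups in all 10 libraries, and Mettl3-ASO replicate 1 is the high circle for Dnmt3b, Uhrf1 and Tet2.

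Counts were fitted with edgeR (quasi-likelihood), with batch in the model and Benjamini-Hochberg adjustment over 9522 genes with a mean of at least 1 FPKM. Of the 9 genes, 7 passed this filter. Dnmt3a rose, Dnmt3b, Dnmt3l, Uhrf1 and Tet2 fell, and Dnmt1 and Tet1 did not pass the test. That is 5 of 7, where 49.4% of all tested genes were called (25.4% rose and 24.0% fell), so a called gene was common in this comparison. The median log2 fold change was -0.63 over the 7 genes and 0.01 over all tested genes. Whether replicate libraries came from different fertilizations is not labelled, and each p-value reflects only how much these libraries varied. In pooled embryos, fewer cells of a type and less RNA per cell cannot be told apart.

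Dnmt3a encodes a de novo methyltransferase. Its level in ASO-Control replicates 1 to 5 was 2.41, 2.31, 2.12, 3.20 and 2.61 TPM, and in Mettl3-ASO replicates 1 to 5 it was 4.66, 5.35, 5.0, 4.85 and 4.03 TPM. Every Mettl3-ASO library was above every control library. It was the only 1 of the 7 tested genes whose groups did not overlap, where 23.9% of all tested genes separated the groups (14.8% with Mettl3-ASO higher and 9.12% with it lower). The rise was 1.8-fold (log2 0.84 ± 0.15 SE, n = 5 per group, edgeR adjusted p = 6.8e-04). Dnmt3a lies on chromosome 12, 3801559 to 3914443, plus strand (GRCm38). Of its exonic sequence, 0.799% lies opposite exons of the antisense gene Dnmt3aos.

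Dnmt3b, the other catalytic de novo enzyme, moved the other way. The ASO-Control libraries held 23.53, 17.98, 10.99, 10.47 and 8.46 TPM and the Mettl3-ASO libraries 8.82, 1.76, 2.68, 3.60 and 2.34 TPM, in replicate order. Controls were high in the untagged libraries and lower in batch 2, and Mettl3-ASO replicate 1 stood above the other Mettl3-ASO libraries and just above the lowest control. Within each batch the groups did not overlap. The share of all genes that separate within a batch was not computed, so such separation is only described, here and for the genes below. Dnmt3b fell 3.87-fold (log2 -1.95 ± 0.31 SE, edgeR adjusted p = 2.4e-04). Without Mettl3-ASO replicate 1 the log2 fold change was -2.28. The gene lies on chromosome 2, 153649411 to 153687730, plus strand. Of the 50-base windows of its transcript, 11.5% also occur in Dnmt3c, a rodent duplicate of Dnmt3b. Dnmt3c was not matched in the gene tables, so reads of either copy in those windows may have been counted as Dnmt3b, which was not tested.

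Dnmt3l encodes the cofactor of both de novo enzymes. Its level was 82.38, 106.54, 84.25, 56.02 and 77.46 TPM in the controls and 61.94, 42.20, 54.47, 57.36 and 66.69 TPM in the Mettl3-ASO libraries. The untagged libraries separated the groups, whereas in batch 2 control replicate 4 lay among the Mettl3-ASO values. Dnmt3l fell 1.55-fold (log2 -0.63 ± 0.18 SE, edgeR adjusted p = 0.0115). The gene lies on chromosome 10, 78042287 to 78063622, plus strand, and 2.24% of its exonic sequence lies opposite Aire. The spread was larger in the controls (81.3 ± 18.0 TPM, SD, n = 5) than in the Mettl3-ASO libraries (56.5 ± 9.26 TPM, SD, n = 5).

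Because the catalytic genes moved in opposite directions, the composition of the pool shifted. Dnmt3b made up 68.0 to 82.0% of the summed Dnmt1, Dnmt3a and Dnmt3b TPM in the controls and 20.3 to 53.9% in the Mettl3-ASO libraries. Dnmt3a made up 8.4 to 21.0% and then 28.5 to 61.6%. Dnmt1 took 9.6 to 11.5% and then 14.6 to 18.1%, although its own level did not pass the test, because the sum itself was 12.44 to 28.69 TPM in controls and 7.46 to 16.36 TPM in the Mettl3-ASO libraries. Dnmt3a transcripts outnumbered Dnmt3b transcripts in 4 of 5 Mettl3-ASO libraries and in 0 of 5 controls. The excess of the cofactor over Dnmt3b widened, with a ratio of Dnmt3l to Dnmt3b of 3.5 to 9.16 in controls and 7.02 to 28.5 after Mettl3-ASO, and these ranges overlapped. The shares and ratios restate the levels above and were not tested separately.

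**Figure D2:**
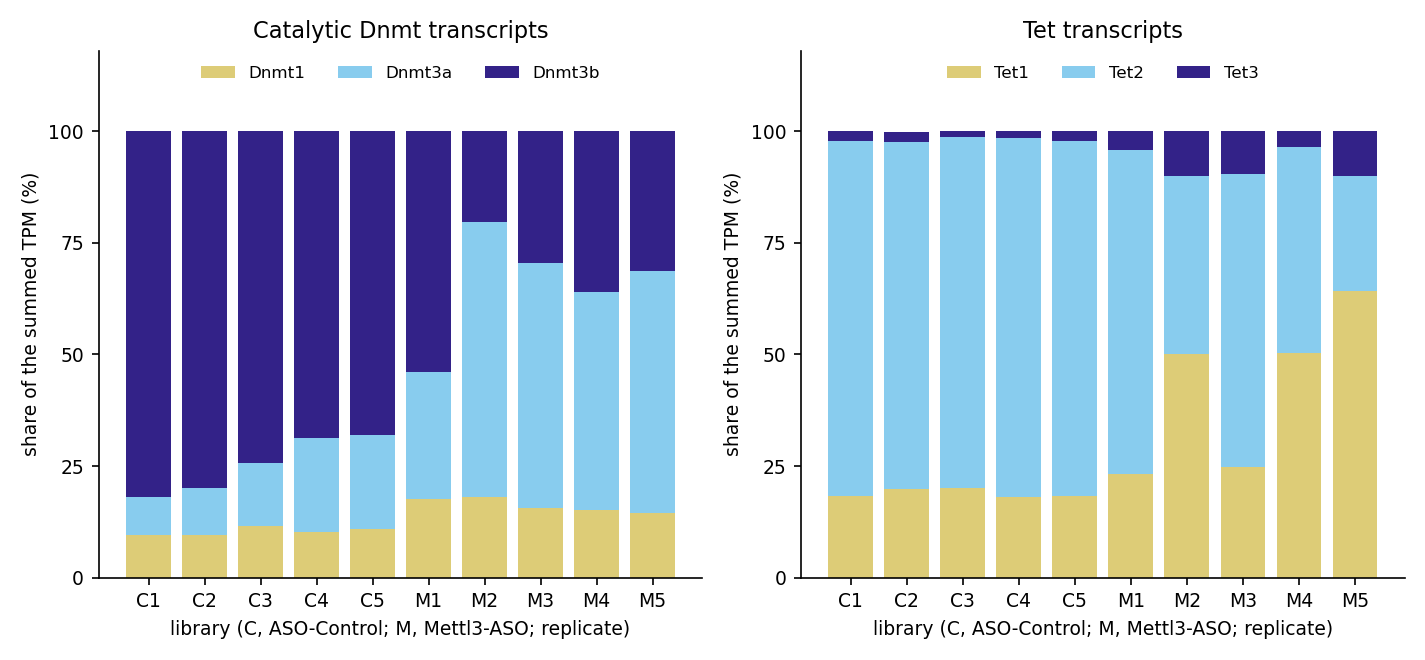
Stacked bars give each gene's share (%, from 0 to 100) of the summed TPM of its family in each library, for Dnmt1, Dnmt3a and Dnmt3b on the left and for Tet1, Tet2 and Tet3 on the right. C and M mark ASO-Control and Mettl3-ASO with the replicate number; the Dnmt3b share is 68.0 to 82.0% in C1 to C5 and 20.3 to 53.9% in M1 to M5.

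Dnmt1, the maintenance methyltransferase, was low throughout. The controls held 2.75, 2.17, 1.71, 1.57 and 1.37 TPM and the Mettl3-ASO libraries 2.88, 1.57, 1.42, 1.51 and 1.09 TPM. The groups overlapped in both batches, and the untagged libraries of replicate 1 were the highest of each group. The log2 fold change was -0.27 ± 0.20 SE (edgeR adjusted p = 0.295). Under quantile scaling with limma it was -0.31 with an adjusted p = 0.034. These values rest on 120 to 261 counts per control library and 70 to 207 per Mettl3-ASO library. Dnmt1 lies on chromosome 9, 20907206 to 20959888, minus strand.

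Uhrf1, which targets DNMT1 to newly replicated DNA, varied widely between libraries. Its level was 16.13, 6.36, 4.27, 3.81 and 2.45 TPM in the controls and 11.74, 1.77, 1.66, 1.15 and 0.93 TPM in the Mettl3-ASO libraries. Replicate 1 was far above the others in both groups. Mettl3-ASO replicates 2 to 5 all lay below every control, while replicate 1 lay above 4 of the 5 controls. Uhrf1 fell 2.42-fold (log2 -1.28 ± 0.42 SE, edgeR adjusted p = 0.0222). The call depended on the fit: the adjusted p was 0.157 without the batch term and 0.0514 with limma on log2(FPKM + 1). Leaving out 1 library at a time ended the call for ASO-Control replicate 1 (0.0732) or 3 (0.0531) and for Mettl3-ASO replicate 4 (0.0531) or 5 (0.0568), and without Mettl3-ASO replicate 1 it was 9.5e-04 at a log2 fold change of -1.85. Uhrf1 lies on chromosome 17, 56303337 to 56323486, plus strand, and 17.9% of its 50-base windows also occur in Gm5648 or Gm15953, so its reads could be shared with those copies.

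Tet2, which oxidises 5-methylcytosine, was the main Tet transcript in control morulae. It stood at 11.24, 9.99, 7.23, 11.07 and 7.92 TPM in the controls and at 10.10, 2.27, 2.7, 3.44 and 0.94 TPM in the Mettl3-ASO libraries. Mettl3-ASO replicate 1 was within the control range and replicates 2 to 5 were below every control. Tet2 fell 2.89-fold (log2 -1.53 ± 0.39 SE, edgeR adjusted p = 0.00574), and without Mettl3-ASO replicate 1 the log2 fold change was -2.02 (adjusted p = 1.5e-04). It lies on chromosome 3, 133463677 to 133545136, minus strand, and 0.255% of its exonic sequence overlaps Gm42567.

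Tet1 encodes a Tet enzyme that carries a CXXC domain, which binds unmethylated CpG. The controls held 2.60, 2.56, 1.84, 2.50 and 1.82 TPM and the Mettl3-ASO libraries 3.23, 2.85, 1.02, 3.75 and 2.36 TPM. The Mettl3-ASO values spread on both sides of the control range. The log2 fold change was 0.15 ± 0.25 SE (edgeR adjusted p = 0.654). Tet1 lies on chromosome 10, 62804570 to 62887469, minus strand.

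Tet3, the Tet enzyme known from the oocyte and zygote, was the lowest of the 9 in controls. It was 0.29, 0.30, 0.12, 0.22 and 0.22 TPM in the controls and 0.61, 0.57, 0.40, 0.26 and 0.37 TPM in the Mettl3-ASO libraries. Within each batch every Mettl3-ASO library was above every control, a pattern whose share over all genes was not computed. The groups overlapped across batches. With a mean of 0.32 FPKM it missed the filter. In a fit with no filter, where 30.2% of 19442 genes were called (16.2% rose and 14.0% fell), the log2 fold change was 0.80 ± 0.37 SE (edgeR adjusted p = 0.0899), on 34 to 78 counts per control library and 54 to 120 per Mettl3-ASO library. Dropping the filter changed the error estimates of tested genes in both directions. The SE of Uhrf1 was 0.24 there against 0.42 with the filter, and that of Dnmt1 0.27 against 0.2. The p-values of the 2 fits are therefore not on the same footing. Tet3 lies on chromosome 6, 83362373 to 83457208, minus strand.

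The Tet pool changed its make-up along with Tet2. Tet2 accounted for 77.7 to 80.3% of the summed Tet TPM in the 5 controls, a narrow range, and for 25.6 to 72.5% in the Mettl3-ASO libraries. Tet1 accounted for 18.1 to 20% and then 23.2 to 64.3%, and Tet3 for 1.3 to 2.3% and then 3.5 to 10.1%. The ratio of Tet2 to Tet1 was 3.9 to 4.43 in the controls and 0.398 to 3.13 in the Mettl3-ASO libraries. The ratio of Dnmt3b to Dnmt3a was 3.24 to 9.76 and then 0.329 to 1.89. Neither ratio overlapped between the groups. Dnmt3a alone already did not overlap, and the share of all gene pairs whose ratio does so was not computed, so nothing further is read from this.

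**Figure D3:**
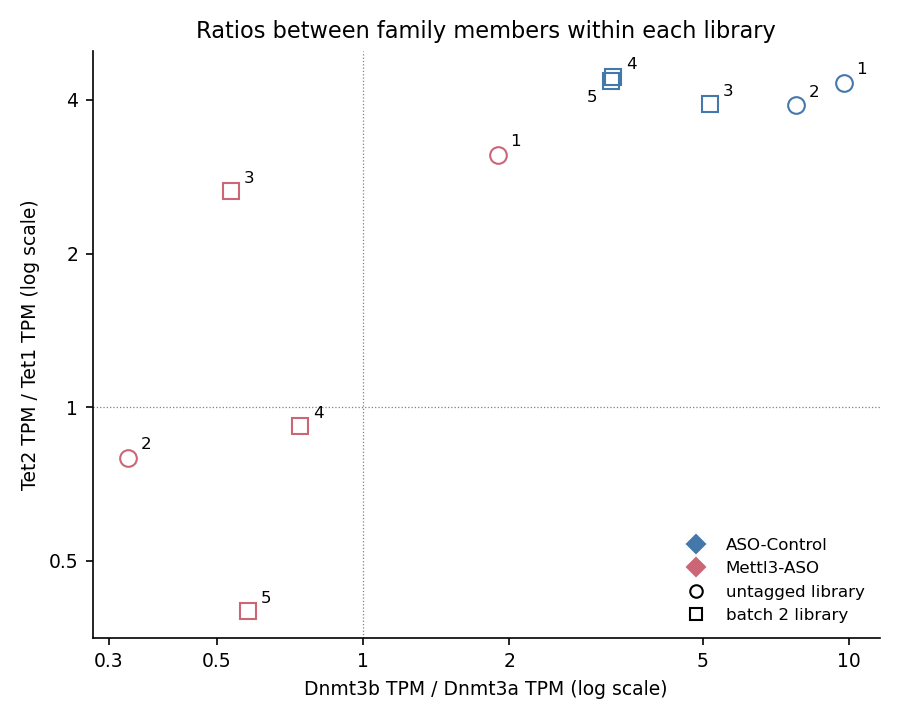
Each point is 1 library, placed by its ratio of Dnmt3b to Dnmt3a TPM (horizontal, log scale) and of Tet2 to Tet1 TPM (vertical, log scale); numbers are replicates, circles untagged and squares batch 2. The 5 controls sit at 3.24 to 9.76 by 3.9 to 4.43, and the 5 Mettl3-ASO libraries at 0.329 to 1.89 by 0.398 to 3.13, with dotted lines at a ratio of 1.

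Tdg, which removes oxidised methylcytosine, was at 0.77, 2.64, 0.36, 0.49 and 1.04 TPM in the controls and 1.78, 0.60, 0.31, 0.18 and 0.11 TPM in the Mettl3-ASO libraries. The groups overlapped among the untagged libraries and not in batch 2, where the Mettl3-ASO libraries were lower. It missed the filter at a mean of 0.78 FPKM. In the fit with no filter, where 14.0% of genes fell, the log2 fold change was -1.30 ± 0.45 SE (edgeR adjusted p = 0.0152), on 28 to 101 counts per control library and 7 to 67 per Mettl3-ASO library. The error estimates of that fit differ from those of the filtered fit, as given for Tet3, so Tdg is not counted as a called gene. Tdg lies on chromosome 10, 82629814 to 82650799, plus strand. Its value is uncertain, because 52.9% of its 50-base windows also occur in other genes, among them Tdg-ps, Gm9855 and Gm5597, and 6.83% of its exonic sequence lies opposite Glt8d2.

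Mettl3-ASO replicate 1 was the highest Mettl3-ASO library for Dnmt3b, Uhrf1, Tet2, Dnmt1, Tet3 and Tdg. The same library was apart in several morula markers: the trophectoderm transcription factor Gata3 was at 17.02 TPM there against 1.49 to 3.75 in the other Mettl3-ASO libraries, and the keratin Krt8 at 147.83 against 13.34 to 24.19. Nanog, a pluripotency factor, was at 490.0 TPM there against 136.18 to 182.95. The part of these differences in the levels of the methylation genes was not tested. Dnmt3a and Dnmt3l were within the range of the other Mettl3-ASO libraries in replicate 1.

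Within batch 2 alone (3 against 3), Dnmt3a rose (log2 0.76 ± 0.20 SE, edgeR adjusted p = 0.014), and Dnmt3b (-1.84 ± 0.22 SE, adjusted p = 2.2e-04), Uhrf1 (-1.54 ± 0.33 SE, adjusted p = 0.00475) and Tet2 (-1.93 ± 0.38 SE, adjusted p = 0.00301) fell. That is 4 of 7 where 39.0% of tested genes were called (20.2% rose and 18.9% fell). Dnmt3l gave -0.38 ± 0.21 SE (adjusted p = 0.17). The Dnmt3a call was lost without ASO-Control replicate 3 (adjusted p = 0.0553), and without ASO-Control replicate 4 Dnmt3l passed (adjusted p = 0.0405).

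Among the untagged libraries (2 against 2), 0 of 7 genes were called by edgeR, limma or edgeR with median-ratio scaling, where 6.26% of tested genes were called by edgeR (3.79% rose and 2.47% fell). At an unadjusted edgeR p under 0.05 there were 3. The share of all tested genes at that unadjusted threshold was not computed, so nothing is read from this count. The log2 fold changes were 1.0 ± 0.29 SE for Dnmt3a, -2.10 ± 0.63 SE for Dnmt3b, -1.0 ± 0.28 SE for Dnmt3l, -0.88 ± 0.79 SE for Uhrf1 and -0.91 ± 0.57 SE for Tet2. Pairing by number is not labelled, and a replicate block leaves very few residual degrees of freedom among the untagged libraries. With that block, Dnmt3a rose and Dnmt3b, Dnmt3l, Uhrf1 and Tet2 fell, where 27.4% of genes were called (14.1% rose and 13.3% fell). The edgeR adjusted p lay between 5.1e-09 for Dnmt3b and 0.0126 for Dnmt3a. The same 5 genes were called without Mettl3-ASO replicate 1, where 27.9% were called (14.5% rose and 13.4% fell) and the lone remaining library was assumed to vary like the controls. Without Mettl3-ASO replicate 2, only Dnmt3b was called, where 11.2% of genes were called (5.65% rose and 5.51% fell). The difference of the effect between batches was called for 0 of 9522 genes by edgeR (159 at an unadjusted p under 0.05) and 0 by limma, and the smallest unadjusted p among the 7 genes was 0.11.

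**Figure D4:**
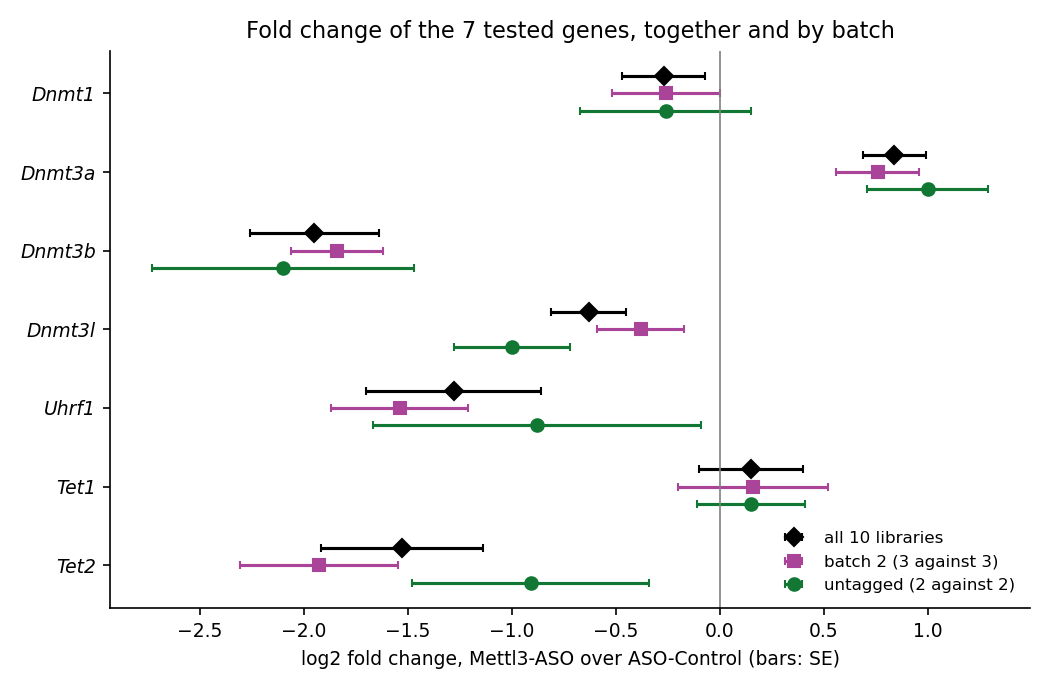
Points give the edgeR log2 fold change (Mettl3-ASO over ASO-Control) of each of the 7 tested genes, with SE bars, for all 10 libraries, batch 2 and the untagged libraries. Dnmt3a lies above 0 and Dnmt3b, Dnmt3l, Uhrf1 and Tet2 below 0 in all 3 fits, from 1.0 for Dnmt3a to -2.10 for Dnmt3b.

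Transcript length, averaged over isoforms by their estimated abundance, was used to ask whether isoform use changed. It varied in 2572 genes, and limma on log2(length) called 8.05% of them (2.22% longer and 5.83% shorter). Uhrf1 length was 3412.19 to 3434.35 bases in the controls and 3402 bases in all 5 Mettl3-ASO libraries (log2 -0.010 ± 0.0014 SE, limma adjusted p = 0.00705), so the whole Uhrf1 estimate after Mettl3-ASO was assigned to transcripts of 1 length. Dnmt3l averaged 1225 ± 26.8 bases (SD, n = 5) in controls and 1194 ± 20 bases in the Mettl3-ASO libraries (limma adjusted p = 0.0432). With the replicate block the adjusted p was 0.0511 for Uhrf1 and 0.0717 for Dnmt3l, and with effective length 0.226 and 0.171. The Dnmt3l call was also lost without any 1 of 9 libraries, with ASO-Control replicate 5 the exception. Dnmt1, Dnmt3a and Dnmt3b did not pass this test. Mean Dnmt3l length fell by 2.48% and mean Uhrf1 length by 0.68%.

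METTL3 favours the sequence GGACT within a wider motif. Counted on the sense strand of the longest coding transcript, it occurred per kilobase 0.511 times in Dnmt1, 1.55 in Dnmt3a, 0.926 in Dnmt3b, 0.549 in Dnmt3l, 1.39 in Uhrf1, 0.905 in Tet1, 0.98 in Tet2, 0.917 in Tet3 and 1.71 in Tdg. The median over 8831 tested genes with a matched coding transcript was 1.02. Dnmt3a, which rose, and Uhrf1, which fell, were both above that median, while Dnmt3b, Dnmt3l and Tet2 were below it. No methylation of RNA was measured, so these are letters in a sequence and not sites.

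For each tested gene the genes with the most similar profile were found by Pearson correlation of log2(TPM + 1) over the 10 libraries, which share group, batch and depth. Tet2 was most like Idh2 (r = 0.987) and Vdac2 (r = 0.98). Dnmt3b was most like Ptges (r = 0.986) and Dhodh (r = 0.984), and Dnmt3a most like Ccdc65 (r = 0.987) and Cirbp (r = 0.985). Uhrf1 was most like Dync1h1 and Arl8a (both r = 0.975), and Dnmt1 most like Rell1 (r = 0.993) and Ptp4a2 (r = 0.981). Dnmt3l and Tet1 had weaker neighbours, led by Abhd14a (r = 0.915) and Mms19 (r = 0.91).

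The other genes of the pathway were grouped by role. Over 9 lists, 65 genes were tested, of which 15 rose and 17 fell, with a median log2 fold change of -0.02. The share called was near the 49.4% of all tested genes. Of all tested genes 25.4% rose and 24.0% fell, and the counts of each list below stand beside these shares.

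Among partners of maintenance methylation, 4 of 9 tested genes rose and 2 fell. Lig1, the ligase that joins Okazaki fragments and recruits UHRF1 when methylated, fell from 18.0 ± 4.97 to 2.89 ± 2.05 TPM (SD, n = 5 each; log2 -2.72 ± 0.31 SE, edgeR adjusted p = 2.2e-05). Dppa3, a maternal protein that keeps UHRF1 from chromatin, rose from 22300 ± 4260 to 36300 ± 9380 TPM (log2 0.62 ± 0.09 SE, adjusted p = 1.7e-04). The Dppa3 call was lost without the batch term (0.0796), and 16.5% of its 50-base windows occur in copies such as Dppa3-ps. Under quantile scaling its log2 fold change was 0.0 and the call was lost. That scaling gives a gene of equal rank the same value in every library, so it could not show a change here. Baz2a, a chromatin remodelling subunit, rose (log2 0.66 ± 0.13 SE, adjusted p = 0.00117). Hells and Cdca7, which form a remodelling complex needed for maintenance, went apart, Hells to log2 -0.70 (adjusted p = 0.00194) and Cdca7 to 0.77 (adjusted p = 0.00151); they and Uhrf2, a paralog of Uhrf1 at log2 1.17 (adjusted p = 0.0242), were named after their values were seen. In a list of 3 further genes, Dnmt3c was not matched in the tables, and 2 of 2 tested fell: Trdmt1, a tRNA methyltransferase once called Dnmt2 (log2 -1.24 ± 0.20 SE, adjusted p = 2.8e-04), and Dmap1, which binds DNMT1 and is not itself a methyltransferase (-0.76 ± 0.16 SE, adjusted p = 0.00185).

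Of 9 tested partners and cofactor sources of the Tet enzymes, 2 rose and 2 fell. Idh1 and Idh2, which make the 2-oxoglutarate that TET enzymes consume, fell with log2 -1.34 ± 0.18 SE (edgeR adjusted p = 7.8e-05) and -1.45 ± 0.25 SE (adjusted p = 5.5e-04). Idh2 stood at 30.64 to 54.53 TPM in controls, 36.92 TPM in Mettl3-ASO replicate 1 and 8.46 to 15.78 TPM in the other Mettl3-ASO libraries. Sall4, a zinc finger protein that binds oxidised methylcytosine, rose (log2 0.75 ± 0.10 SE, adjusted p = 1.0e-04). In base excision repair after Tdg, 3 of 9 fell and 6 did not pass. Those were the polymerase Polb (log2 -1.25 ± 0.14 SE, adjusted p = 2.5e-05) and the partners Xrcc1 (-0.71 ± 0.16 SE, adjusted p = 0.00272) and Lig3 (-0.71 ± 0.16 SE, adjusted p = 0.00302). Of the Lig3 exonic sequence, 25.1% lies opposite Rffl.

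Of 7 genes listed under readers of methylated CpG, 3 passed the filter and 1 fell. Mbd3, a subunit of the NuRD complex, fell (log2 -0.96 ± 0.20 SE, edgeR adjusted p = 0.00152). It was listed by its family name, so its fall is not read as the fall of a methyl-CpG reader. Mbd1 (0.73 ± 0.43 SE, edgeR adjusted p = 0.177) and Mbd2 (-0.32 ± 0.43 SE, adjusted p = 0.562) did not pass. Of 2 tested readers of unmethylated CpG, 1 rose: the Polycomb-associated demethylase Kdm2b (log2 1.04 ± 0.14 SE, adjusted p = 7.3e-05), and Cxxc1 was at -0.18 ± 0.23 SE (adjusted p = 0.53). Among 5 tested genes that protect imprints, 2 rose. Zfp445, a zinc finger protein that binds imprinted loci, rose (log2 0.65 ± 0.15 SE, adjusted p = 0.00287). Setdb1, a histone methyltransferase, also passed (0.47 ± 0.17 SE, adjusted p = 0.0337), but its call was lost in 9 of 22 alternative settings. Ctcf, which insulates imprinted domains, was at 0.18 ± 0.11 SE (adjusted p = 0.196).

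Supply of S-adenosylmethionine, the methyl donor, was covered by 11 tested genes, of which 5 fell and 1 rose (24.0% and 25.4% of all tested genes). The riser was Mtrr (log2 0.64 ± 0.15 SE, edgeR adjusted p = 0.00394). The synthetase genes Mat2a (0.30 ± 0.18 SE, adjusted p = 0.19) and Mat2b (0.44 ± 0.23 SE, adjusted p = 0.137) did not pass. These 3 genes were named after their values were seen. Ahcyl1, listed only as a homolog of the enzyme that clears the product S-adenosylhomocysteine, fell most (log2 -1.62 ± 0.20 SE, edgeR adjusted p = 4.1e-05). The gene of that enzyme, Ahcy, also named after its value was seen, was at log2 -0.74 ± 0.23 SE (adjusted p = 0.0188). Mtr, the methionine synthase, fell by 1.07 on the log2 scale (SE 0.24, adjusted p = 0.00263), and Shmt2, which feeds 1-carbon units in mitochondria, fell by 1.13 (SE 0.20, adjusted p = 4.6e-04). Germline genes whose promoters are silenced by DNA methylation in later tissues went both ways, with 5 of 15 risen and 2 fallen and a median log2 of 0.04. Rpl10l, a ribosomal protein gene of the testis, rose from 32.24 to 81.41 TPM in controls to 164.23 to 296.15 TPM (log2 2.08 ± 0.22 SE, adjusted p = 1.2e-05), and Tex19.1 rose by a log2 of 1.14 ± 0.11 SE (adjusted p = 7.0e-06). Slc25a31, a germline ADP/ATP carrier, fell (log2 -1.23 ± 0.32 SE, adjusted p = 0.00663). Of the windows of Rpl10l, 7.6% occur in Gm14460.

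**Figure D5:**
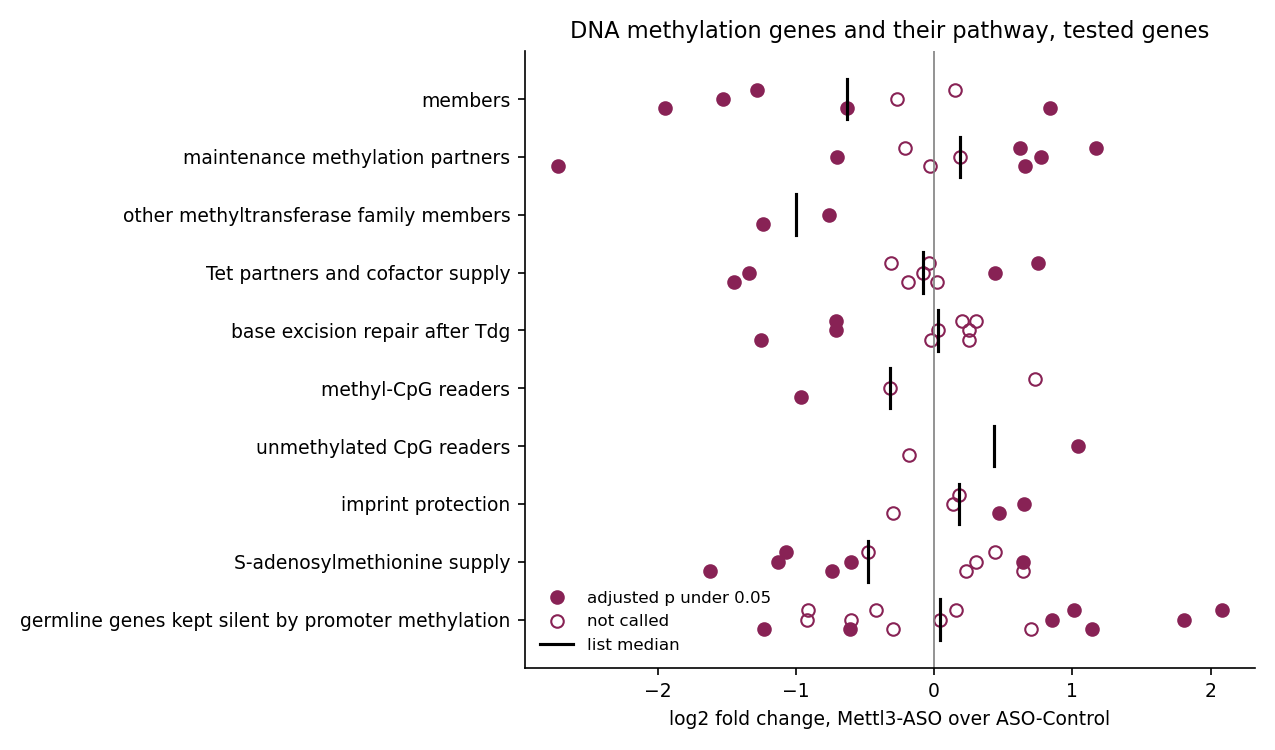
Each point is a tested gene, placed by its edgeR log2 fold change (Mettl3-ASO over ASO-Control) in the row of its list; filled points have an adjusted p under 0.05 and the bar is the list median. The top row holds the 7 tested writers, erasers and partners with a median of -0.63, and the S-adenosylmethionine row has a median of -0.48.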

How the data were processed

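Polyadenylated RNA of 10 pooled morulae per library was sequenced for 5 ASO-Control and 5 Mettl3-ASO libraries. Reads were processed with STAR 2.7.10, RSEM 1.3.3 and the mm10 build, per the submitters' processing notes. The annotation release and strand setting are not given in the sources used here. Deposited tables give expected counts per gene. They also give the authors' TPM and FPKM, and transcript length and effective length in bases. The genes and the lists were chosen with earlier results of these data known.

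Expected counts were rounded and tested with edgeR 4.0.16 in R 4.3.3 (quasi-likelihood, TMM scaling, batch and group, mean FPKM of at least 1, Benjamini-Hochberg threshold 0.05). SE was derived as the absolute log2 fold change over sqrt(F). Lengths were tested with limma 3.58.1 on log2(length). DESeq2 1.42.0, limma on log2(FPKM + 1) and other scalings, filters and left-out libraries were alternatives. The fits were tested on simulated data. Named genes were the 9 members and, in each list, the 3 tested genes with the smallest p, beside the 2 closest profiles of each member and Mettl3.

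Replicates differed by more than counting noise (chi-square over degrees of freedom at least 21.2). The labels give both groups replicate numbers 1 to 5 without stating what a number shares. Deviations from the group means within a batch correlated at 0.105 to 0.273 for all 5 same-numbered pairs. The 2 untagged pairs must share 1 value (0.273), because the deviations of 2 libraries from their mean mirror each other. Deviations in batch 2 are also tied, as they sum to 0 in each group. The correlations are therefore not separate evidence of pairing, and a replicate block was fitted only as the paired alternative. Sequence windows of 50 bases were matched across the annotated transcripts of GRCm38 to find near-identical copies.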

Additional observations from a re-analysis of the deposited data

Results flagged for a closer look

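In 18 groups of 5 libraries (9 genes in each group of embryos), 5 held a library whose gap to its nearest neighbour took up more of the range than Dixon's 95% critical value for 5 samples allows (0.71). Chance flags about 1 in 20 groups if they are independent and each is drawn from 1 normal population. The 18 groups are not independent, since all 9 genes were measured in the same libraries. Each group also mixes untagged libraries with tagged ones. The count of 5 is therefore not read against that rate. In 4 of the 5 cases the library was Mettl3-ASO replicate 1. It held Dnmt1 at 2.88 TPM (gap over range 0.732), Dnmt3b at 8.82 TPM (0.739), Uhrf1 at 11.74 TPM (0.922) and Tet2 at 10.1 TPM (0.727), each the highest of its group. The remaining case was Uhrf1 in ASO-Control replicate 1, at 16.13 TPM (0.714). Both libraries are untagged. Mettl3 had 0 counts in Mettl3-ASO replicate 1.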

How the results depend on the processing

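Across 157 alternative values for the 7 tested genes, 146 kept their direction and side of the threshold, 8 lost the call, 1 gained it and 2 changed sign. Both sign changes were in Tet1, which was not called: -0.101 under quantile scaling, and -0.099 to 0.343 when 1 library was left out. Dnmt3a, Dnmt3b and Tet2 were called under every alternative that tested them; Dnmt3l lost its call only with limma on log2(FPKM + 0.1) (adjusted p = 0.0514). Uhrf1 lost it in 7, and besides those given with its result the pseudocount of 5 gave 0.11. For 25 named pathway genes, 558 of 569 values stayed the same and 11 lost the call, in Dppa3 and Setdb1. With a mean FPKM of at least 5, only 3 of the 7 genes could be tested and 0 rose. Under quantile scaling 9 pathway genes rose in place of 15; the cause was not tested. Leaving out 1 library at a time gave 0 to 1 risen in batch 2 (0 without ASO-Control replicate 3), and 0 to 1 risen and 0 to 4 fallen among the untagged libraries. The replicate block gave 1 risen and 4 fallen there and changed no other call among the levels of the 7 genes. Of the lengths, 2 shortened in the fit reported, 1 without the batch term, 0 with effective length, 0 with the replicate block, and 1 to 2 without 1 library. Depth limits Tet3 and Tdg most, with at most 120 and 101 counts in a library. Other sign changes were also in values that were not called. Leaving out 1 library gave log2 values of -0.298 to 0.51 for Tet1 in batch 2, -0.669 to 0.061 for Dnmt1 in the untagged libraries and -0.007 to 0.001 for Dnmt3b length. For the difference between batches it gave -0.281 to 0.426 for Dnmt1, -0.4 to 0.001 for Dnmt3a, -0.403 to 1.737 for Dnmt3b, -1.458 to 1.141 for Uhrf1, -0.471 to 0.334 for Tet1 and -1.651 to 0.303 for Tet2, with the highest values without Mettl3-ASO replicate 1 for Dnmt1, Dnmt3b, Uhrf1 and Tet2. That difference was 0.013 for Dnmt1 with limma, and 0.017 for Dnmt1 and 0.019 for Tet1 with median-ratio scaling.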
